A study of Caenorhabditis elegans with 2 samples.

Results

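The cadherin superfamily genes of Caenorhabditis elegans were examined for binding sites of UNC-42, a paired-type homeodomain transcription factor known for its part in the identity of sensory neurons, interneurons and motor neurons. The 10 genes were chosen by name (hmr-1, fmi-1, cdh-1, cdh-3, cdh-4, cdh-5, cdh-7, cdh-8, cdh-9 and cdh-10) out of 19973 protein-coding genes in the Ensembl annotation of WBcel235, the assembly also called ce11. Their loci, taken as the gene body plus 5000 bp upstream, cover 246.9 kb. They held 32 of the 4780 summits of the optimal peak set, which the submitters kept by the irreproducible discovery rate (IDR), a measure of how well peak ranks repeat between replicates. The set equals the 4780 strongest peaks of the pooled replicates, so a summit in it need not rank as high in each replicate.

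Chromatin was recovered from whole hermaphrodite late embryos of the strain OP173, collected 3 hours after synchronisation by egg bleaching. The strain stably expresses UNC-42 fused at its C terminus to GFP and FLAG, and an antibody against GFP was used, per the samples' description, while the antibody field of the labels reads unc-42. Which protein pool the antibody recovered, tagged alone or also untagged, rests on that description. There were 2 biological replicates of 1 group and no second condition. Whether the strain keeps its untagged unc-42 alleles, and which sequences drive the transgene, is not given in the sources used here. No sample without the tag was analysed, so the sites are not shown to depend on UNC-42. Whole embryos mix all cell types, and a site used in few cells cannot be told from one bound weakly in many. The relaxed lists, which hold background regions as well as peaks, had 22676 entries for replicate 1, 20932 for replicate 2 and 23778 for the pooled replicates. The deposited signal is the peak caller's own score and ranks peaks within a list only. Read depth is unknown, so no error can be given for a single peak.

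Cadherins are transmembrane proteins whose extracellular repeats bind calcium and hold cells to each other. HMR-1, the classical cadherin of the worm, anchors to actin through catenins in the adherens junctions of the embryonic epidermis. It is also known for a longer form made in neurons from a promoter of its own. FMI-1 is the worm relative of Flamingo, a multi-pass cadherin with roles in axon guidance. CDH-4 and CDH-3 are related to Fat, and CDH-1 to Dachsous. CDH-4 acts in axon fasciculation and cell migration, and CDH-3 in the shaping of epidermal cells of the tail.

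The sequences below show what lay at sites outside hmr-1 that the results turn on. They are the strongest summits of fmi-1, cdh-1 and cdh-9, a further strong summit of fmi-1, the fmi-1 summit nearest to an internal start, and the summits of cdh-4 and cdh-8 with a spaced homeodomain palindrome. Each is the RefSeq sequence of WBcel235 over 201 bases centred on the summit, plus strand, and overlaps no annotated exon. Capitals mark each TAAT, the core that homeodomains bind, on either strand (ATTA on the other), and each GA repeat of 8 bases (GAGAGAGA, or its complement). The fmi-1 windows are chrV:13024657-13024857, chrV:13028980-13029180 and chrV:13022399-13022599. The cdh-1 window is chrIII:2914153-2914353 and the cdh-9 window chrX:16595603-16595803. The cdh-4 window is chrIII:4515278-4515478 and the cdh-8 window chrIV:339462-339662.
fmi-1 strongest summit: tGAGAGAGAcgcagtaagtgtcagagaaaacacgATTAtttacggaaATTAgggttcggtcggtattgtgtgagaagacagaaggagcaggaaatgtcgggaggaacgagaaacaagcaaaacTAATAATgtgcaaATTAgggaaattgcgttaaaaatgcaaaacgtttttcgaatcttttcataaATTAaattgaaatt
fmi-1 intron 19 summit: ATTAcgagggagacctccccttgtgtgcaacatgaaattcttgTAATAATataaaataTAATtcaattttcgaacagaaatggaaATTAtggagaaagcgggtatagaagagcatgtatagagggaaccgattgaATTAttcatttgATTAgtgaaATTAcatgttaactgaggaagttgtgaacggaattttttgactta
fmi-1 summit near the fmi-1b start: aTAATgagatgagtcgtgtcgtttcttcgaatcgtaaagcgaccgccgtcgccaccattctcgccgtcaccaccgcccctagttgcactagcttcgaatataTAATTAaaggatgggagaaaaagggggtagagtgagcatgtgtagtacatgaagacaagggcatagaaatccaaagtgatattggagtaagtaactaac
cdh-1 strongest summit: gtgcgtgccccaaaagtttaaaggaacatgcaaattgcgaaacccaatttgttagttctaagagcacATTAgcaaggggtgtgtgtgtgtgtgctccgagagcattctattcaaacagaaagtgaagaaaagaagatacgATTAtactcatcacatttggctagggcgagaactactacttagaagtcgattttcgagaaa
cdh-9 first intron summit: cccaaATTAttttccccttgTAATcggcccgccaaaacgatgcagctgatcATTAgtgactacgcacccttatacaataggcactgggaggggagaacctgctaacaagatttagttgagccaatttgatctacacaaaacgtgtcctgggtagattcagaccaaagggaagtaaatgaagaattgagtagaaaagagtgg
cdh-4 upstream summit: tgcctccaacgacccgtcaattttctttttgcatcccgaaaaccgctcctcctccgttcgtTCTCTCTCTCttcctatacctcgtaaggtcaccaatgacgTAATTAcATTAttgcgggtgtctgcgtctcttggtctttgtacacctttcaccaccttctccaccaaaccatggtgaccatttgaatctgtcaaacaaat
cdh-8 upstream summit: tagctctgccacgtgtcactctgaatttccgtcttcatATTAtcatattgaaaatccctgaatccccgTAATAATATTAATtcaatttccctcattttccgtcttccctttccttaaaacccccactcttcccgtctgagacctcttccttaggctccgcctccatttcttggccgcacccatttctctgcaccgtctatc

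Binding was uneven across the family. Of the 10 loci, 6 held at least 1 optimal summit and 4 held none. Over all protein-coding loci 27.8% held at least 1, and over the 1897 loci of at least 12000 bp, about the length of the shortest cadherin locus, 53.1% did. The share of cadherin loci with a summit was thus close to that of long loci. The number of summits was concentrated in hmr-1 with 13 and fmi-1 with 8, followed by cdh-1 and cdh-4 with 4 each, cdh-9 with 2 and cdh-8 with 1. The median was 1.5 summits over the cadherin loci, against 1 over the long loci and 0 over all loci. The cadherin loci pooled had 1.3 summits per 10 kb, against 0.477 over the genome. Over the long loci the density, taken locus by locus, had a mean of 0.587 and a median of 0.43, which is not the same measure. Of the 32 summits behind the pooled cadherin value, hmr-1 held 13 and fmi-1 8, so that value does not describe each gene of the family.

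**Figure D1:**
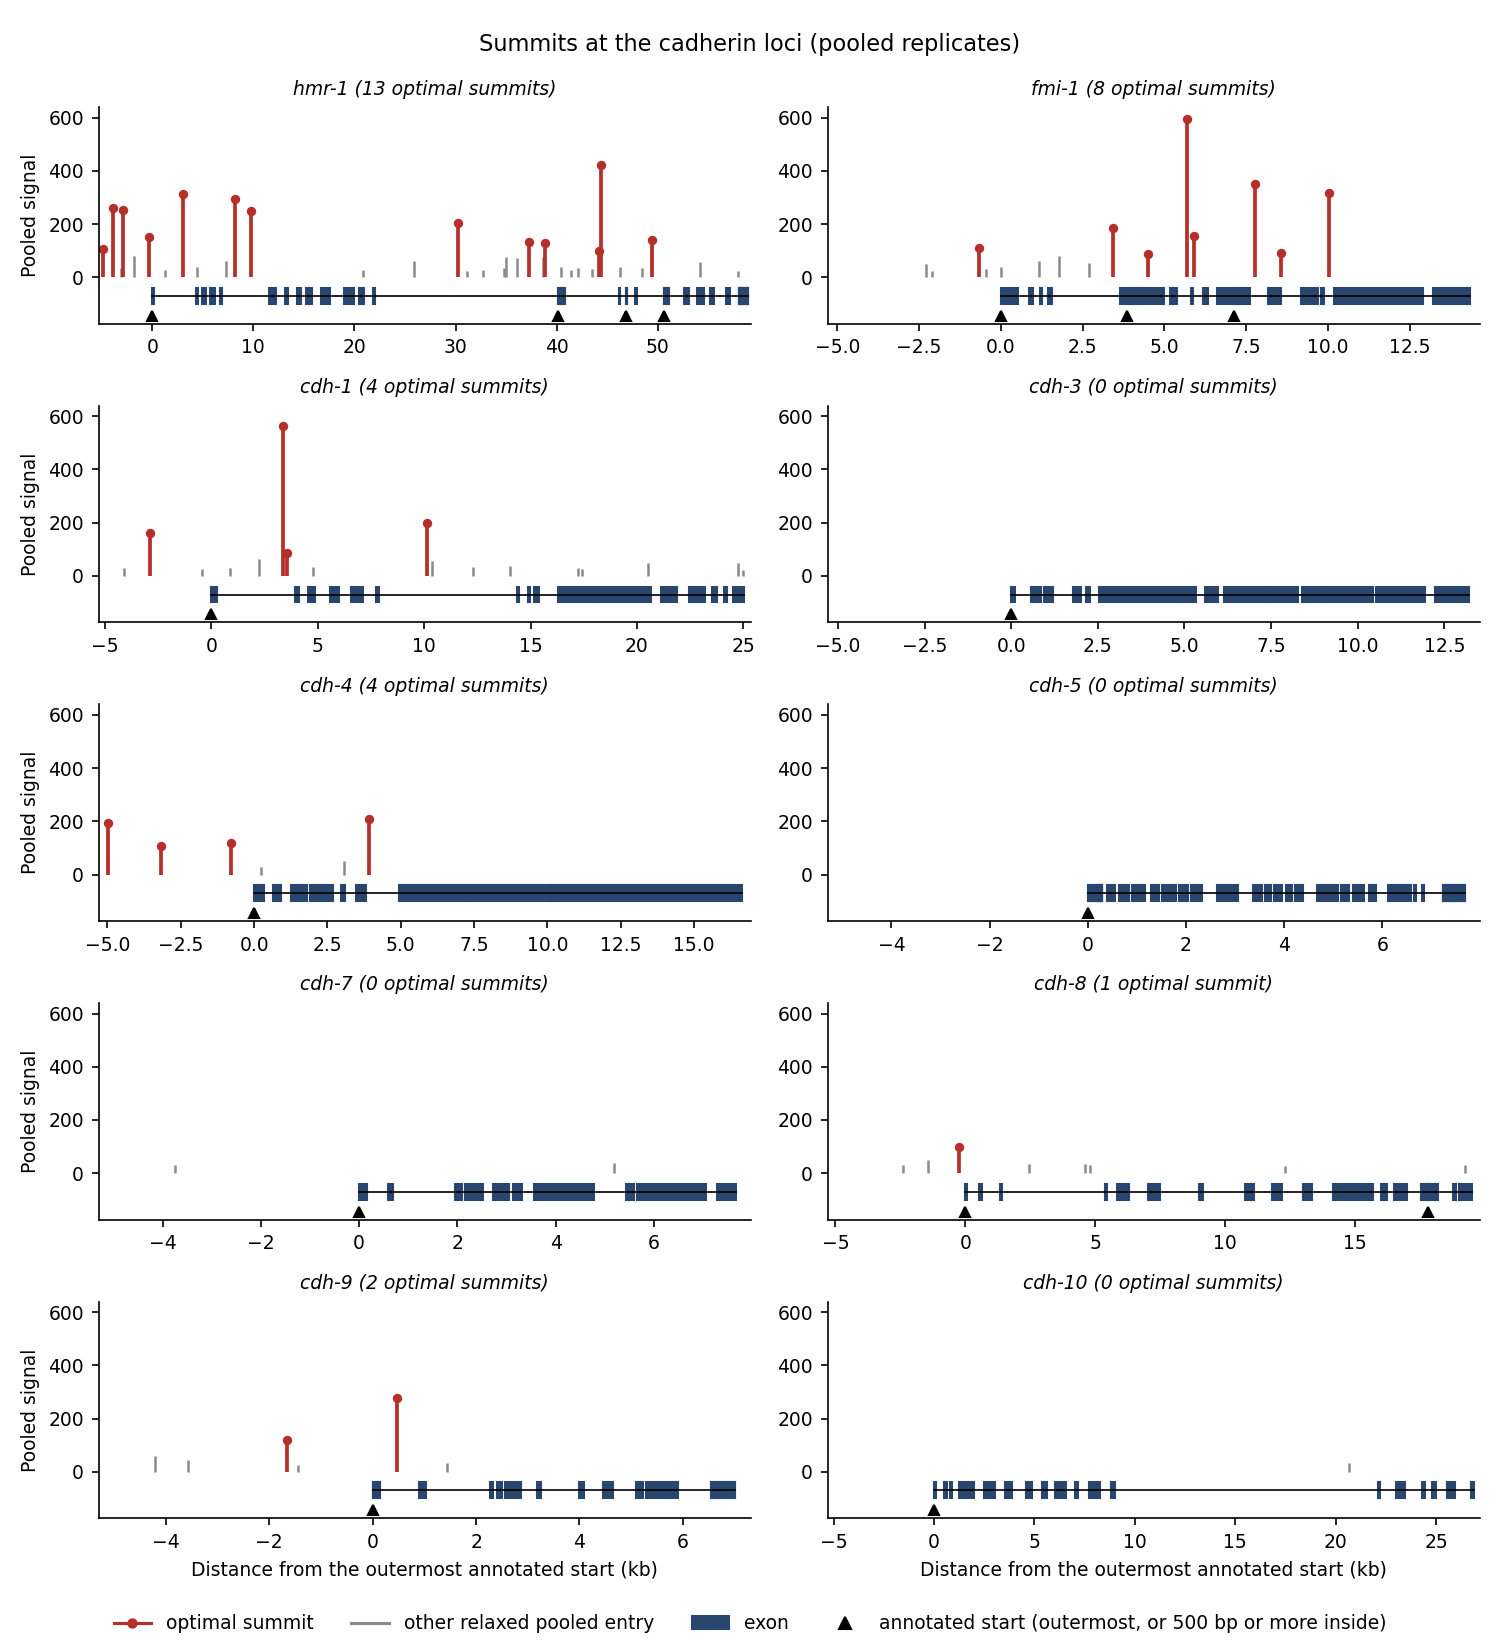
Pooled signal (y axis, peak caller's score) against distance from the outermost annotated start in kb (x axis, transcription to the right, a scale of its own for each gene) at the 10 cadherin loci. Red stems are optimal summits, grey stems other relaxed pooled entries, boxes exons of all transcripts and triangles annotated starts; hmr-1 holds 13 red stems, fmi-1 8, and cdh-3, cdh-5, cdh-7 and cdh-10 none.

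The count at hmr-1 was equalled or passed by 2 protein-coding loci in all, hmr-1 included, which is 0.01% of all loci and 0.105% of the long ones. The count at fmi-1 was reached by 12 loci, 0.0601% of all and 0.58% of the long ones. At least 4 summits, as at cdh-1 and cdh-4, lay at 0.961% of all loci and 6.27% of the long ones. At least 2, as at cdh-9, lay at 7.82% and 24.7%. Long loci offer more room, and hmr-1 spans 63.9 kb. Per 10 kb, hmr-1 had 2.03 summits, a density reached by 115 of the 1897 long loci. The density of fmi-1 was 4.14 per 10 kb over 19.3 kb, reached by 6 of these loci, fmi-1 included. The density was 1.85 at cdh-4, 1.66 at cdh-9, 1.33 at cdh-1 and 0.408 at cdh-8. In that order, 137, 157, 292 and 966 of the 1897 long loci reached these densities.

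**Figure D2:**
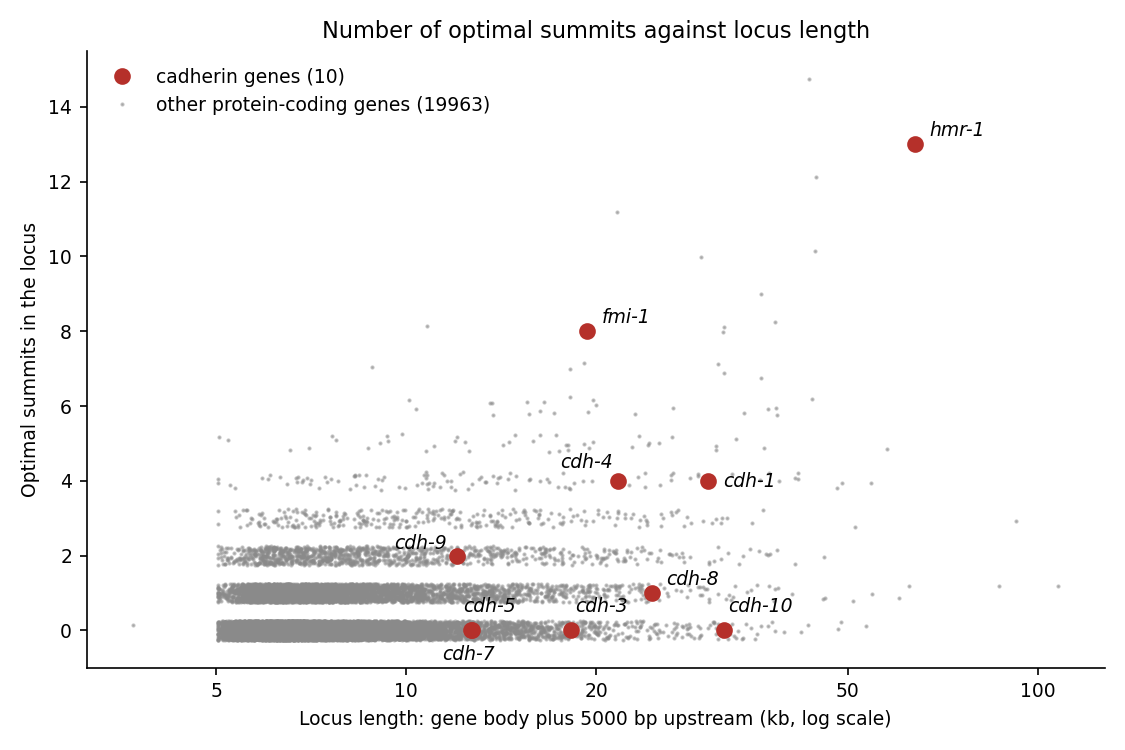
Number of optimal summits (y axis) against locus length in kb (x axis, log scale) for the 10 cadherin genes (red, named) and the other protein-coding genes (grey, spread vertically by a small random amount so that points do not hide each other). The hmr-1 point lies at 63.9 kb and 13 summits and the fmi-1 point at 19.3 kb and 8, while cdh-3, cdh-5, cdh-7 and cdh-10 lie at 0.

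The hmr-1 gene (I, 11075755 to 11134667, minus strand) has 5 annotated transcripts with 4 distinct starts. The outermost start begins the long form, hmr-1b, with 31 exons and 2920 codons. The start of hmr-1a, the form with 1269 codons, lies 40141 bp inside the gene, and the starts of hmr-1d and hmr-1e lie 46835 and 50614 bp inside. Of the 13 summits, 4 lay upstream of the outermost start, 6 between it and the hmr-1a start, and 3 inside the hmr-1a unit. All 9 summits within the gene body were intronic.

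The strongest hmr-1 summit lay at 11090265, in intron 22 of hmr-1b, inside the hmr-1a unit. Its pooled signal was 422 (rank 180), with 184 (rank 213) in replicate 1 and 240 (rank 175) in replicate 2. The next strongest lay at 11131615 in the first intron of hmr-1b, 3052 bp inside the gene. It had a pooled signal of 313 (rank 438), and it ranked 314 in replicate 1 and 584 in replicate 2. Intron 6 of hmr-1b held summits at 11126499, with a signal of 294 (rank 507), and at 11124895, with 249 (rank 767). These ranked 648 and 1244 in replicate 1, and 427 and 572 in replicate 2. Both thus ranked higher in replicate 2, while the first intron summit ranked higher in replicate 1.

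Intron 21 of hmr-1b, the longest of the gene at 18310 bp, contains the hmr-1a start and held 3 summits. That at 11104418 had a signal of 204 (rank 1201), that at 11097429 a signal of 133 (rank 2546) and that at 11095821 a signal of 130 (rank 2630). The last of these was the nearest to the hmr-1a start, 1295 bp upstream of it, and it ranked 2396 in replicate 1 and 2653 in replicate 2. Intron 25 held a summit at 11085246, 1193 bp upstream of the hmr-1e start, with a signal of 140 (rank 2330). A weaker entry at 11090465, with a signal of 100 (rank 3770), lay 200 bp from the strongest summit. It ranked 1744 in replicate 2, and the nearest replicate 1 entry was 193 bp away, that is, nearer to the strongest summit than to it.

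Upstream of hmr-1 the nearest summit, 329 bp from the outermost start at 11134996, had a signal of 153 (rank 2052) and ranked 1461 in replicate 1 and 2962 in replicate 2. Stronger ones lay 2882 bp upstream, with a signal of 251 (rank 753), and 3855 bp upstream, with 259 (rank 706). The outermost, 4888 bp upstream, had a signal of 106 (rank 3489) and ranked 2645 in replicate 1 and 5742 in replicate 2. The summits 3855 and 4888 bp upstream were nearer to the start of clec-93, a neighbouring gene transcribed the other way, at 3588 and 2555 bp. Both summits in intron 6 were nearer to the start of Y52B11B.1, a short gene nested in that intron, at 2759 and 1155 bp. Where a summit counted only for the gene with the nearest start of any annotated transcript, hmr-1 kept 9 of its 13 summits. With the outermost start of each gene alone it kept 3, since 6 of the 9 lay nearest to the hmr-1a, hmr-1d or hmr-1e start.

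The fmi-1 gene (V, 13019061 to 13033401, plus strand) held the strongest summit of the family. It lay at 13024757 in intron 8, 5696 bp inside the gene, with a pooled signal of 594 (rank 62). It had a signal of 269 (rank 61) in replicate 1 and 329 (rank 72) in replicate 2, so its place was alike in both. A second summit 205 bp downstream, at 13024962 in intron 9, had a signal of 156 (rank 1999). The summit at 13026837 in intron 13 had a signal of 349 (rank 331), with ranks of 308 in replicate 1 and 376 in replicate 2. It also lay within W07G4.10, a non-coding RNA gene on the other strand. The summit at 13029080 in intron 19 had a signal of 316 (rank 421), and it ranked 683 in replicate 1 and 283 in replicate 2.

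The summit at 13022499, in intron 4, had a signal of 187 (rank 1445) but ranked 4876 in replicate 1 and 1008 in replicate 2. Its ranks differed 4.84-fold, and 0.74% of all optimal summits matched in both lists differed by as much. The replicate 1 entry matched to it lay 76 bp away, the nearest in that list. The summit at 13027636 (pooled rank 4178) ranked 6478 and 2800, and that at 13023567 (pooled rank 4439) ranked 9458 and 3227, with replicate 1 given first. The only summit upstream of the gene, at 13018395 and 666 bp from the start, had a signal of 111 (rank 3293). It ranked 4173 in replicate 1 and 2845 in replicate 2. Each of these 4 summits ranked lower in replicate 1 than in replicate 2, as did the summit in intron 19.

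Unlike hmr-1, fmi-1 has mostly short introns, the longest being 2049 bp. Of its 8 summits 7 were intronic, and 6 of them lay in introns of 68 to 604 bp. That at 13023567 lay in an intron of 68 bp, so its peak interval reached into the exons around it. The intervals of the summits at 13024757, 13024962, 13027636 and 13029080 also covered fmi-1 exon sequence. All 8 summits were nearer to an annotated start of fmi-1 than to that of any other protein-coding gene. With the outermost start of each gene alone 5 of the 8 were, and the summits at 13026837, 13027636 and 13029080, 644, 1443 and 2887 bp downstream of the fmi-1c start, then counted for W07G4.1, the next gene downstream.

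The cdh-1 gene (III, 2910906 to 2935961, plus strand) had its strongest summit at 2914253 in the first intron, 3347 bp inside the gene. Its pooled signal was 565 (rank 75), with 229 (rank 103) in replicate 1 and 335 (rank 64) in replicate 2. A weak summit at 2914456, 203 bp away, had a signal of 84.6 (rank 4605), the lowest of the family. In intron 8, a summit at 2921056 had a signal of 200 (rank 1261) and lay inside R10F2.4, a protein-coding gene nested there on the other strand. A summit 2884 bp upstream of cdh-1 had a signal of 161 (rank 1896). The gene has a single annotated start, and no optimal summit lay nearer to it than 2884 bp.

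At cdh-4 (III, 4520357 to 4536994, plus strand) the summits stood mainly upstream. They lay 4979, 3177 and 778 bp before the start, with signals of 194 (rank 1341), 106 (rank 3528) and 117 (rank 3060). The outermost ranked 1624 in replicate 1 and 1334 in replicate 2. The nearest to the start ranked 2315 in replicate 1 and 5247 in replicate 2. The strongest, with a signal of 208 (rank 1158), lay in intron 8 at 4524263, 3906 bp inside, and ranked 796 in replicate 1 and 1443 in replicate 2. The start of cdh-4 was the nearest to all 4. A reach of 2000 bp upstream in place of 5000 bp left 2 of them.

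The cdh-9 gene (X, 16595231 to 16602245, plus strand) had a summit at 16595703 in its first intron of 762 bp, 472 bp inside. Its pooled signal was 277 (rank 599), and it ranked 897 in replicate 1 and 452 in replicate 2. A summit 1649 bp upstream had a signal of 121 (rank 2941). The single summit of cdh-8 (IV, 339808 to 359293, plus strand) lay 246 bp upstream of its start with a signal of 97.6 (rank 3895), near the end of the optimal set. It ranked 3990 in replicate 1 and 4098 in replicate 2, so a low rank was found in both.

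The loci of cdh-3, cdh-5, cdh-7 and cdh-10 held no optimal summit. The cdh-3 locus (III, gene 7741229 to 7754448) had no entry in the relaxed pooled list or in either replicate list over 18.2 kb. The cdh-5 locus (IV, gene 8668935 to 8676619) had none in the pooled and replicate 1 lists and 1 in the replicate 2 list. An empty pooled list was found at 35.6% of all loci and at 10.3% of the long ones. The cdh-7 locus (II, gene 14843229 to 14850905) had 2 relaxed pooled entries, the stronger at rank 12128; replicate 1 listed 2 and replicate 2 listed 1. The cdh-10 locus (IV, gene 2436498 to 2463369) had 1 pooled entry, at rank 15195, over 31.9 kb; replicate 1 listed 5 entries there and replicate 2 listed 4. The nearest optimal summit lay 11756 bp from the start of cdh-3, 19018 bp from that of cdh-5, 32396 bp from that of cdh-7 and 31926 bp from that of cdh-10. A gene without a summit may still be bound below the threshold used, and these are whole-embryo data of a single stage.

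The optimal set is the first 4780 entries of the pooled list by signal, and the next cadherin entries fell just below it. The last inside was the cdh-1 summit at rank 4605 with a signal of 84.6. The first outside was an hmr-1 entry 1853 bp upstream of the outermost start, at rank 4896 with a signal of 80.2, followed by an fmi-1 entry at rank 4940 with a signal of 79.5. In all, the cadherin loci held 89 relaxed pooled entries, of which 57 were outside the optimal set.

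The cadherin summits ranged from rank 62 to rank 4605 of the 4780 in the set. Their median pooled signal was 174, against 138 over all optimal summits, with a range of 84.6 to 594 against 81.6 to 1404. Among the 2390 strongest of the set lay 20 of 32, or 62.5%, against 50% by construction. Among the 478 strongest lay 6 of 32, or 18.8%, against 10%. These 6 were the strongest summits of hmr-1, fmi-1 and cdh-1, further summits of fmi-1 at 13026837 and 13029080, and the first intron summit of hmr-1.

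Of the 32 cadherin summits, 31 (96.9%) had a match within 100 bp in both replicate lists, against 96.2% of all optimal summits. The exception was the weaker of the close hmr-1 pair. With matches within 50 bp the number was 26, and within 200 bp it was 32. The share of all optimal summits was not taken at these distances. At 200 bp the exception was matched to a replicate 1 entry 193 bp away, which was also matched to the stronger summit of that pair. That match therefore does not show the weaker summit in replicate 1. Among the 4780 highest-signal entries of both replicate lists were 26 of 32 (81.2%), against 76.8% of all. No cadherin summit was outside the 4780 highest of both lists at once. The ranks in the 2 lists differed by a median of 1.55-fold over the 31 matched cadherin summits, against 1.35-fold over the 4596 matched optimal summits. Replicate 2 gave the higher rank at 16 of 31 cadherin summits , against 51.0% of all. With the 4780 highest entries of a single replicate in place of the optimal set, 31 summits were counted at the loci with either replicate, and the same number of loci, 6, held at least 1.

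**Figure D3:**
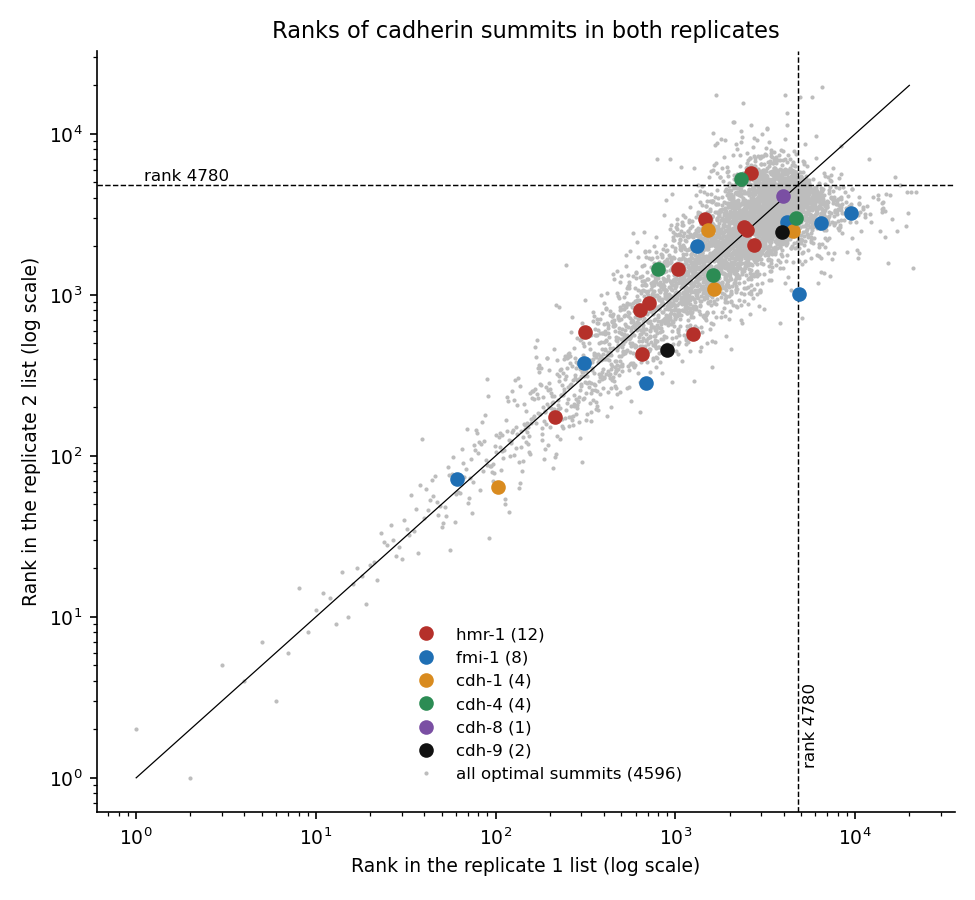
Rank in the replicate 2 list (y axis) against rank in the replicate 1 list (x axis), both on log scales, for the 31 cadherin summits matched in both lists (coloured by gene) over all 4596 matched optimal summits (grey). The solid line marks equal ranks and the dashed lines rank 4780; the fmi-1 summit at rank 4876 in replicate 1 and 1008 in replicate 2 lies farthest below the line among the named genes.

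By annotation, 21 of the 32 cadherin summits (65.6%) were in introns and 11 (34.4%) in intergenic sequence. Over all optimal summits, 28.2% were intronic and 59.0% intergenic. No cadherin summit was in a coding exon, where 1.74% of all were, in a 5' UTR (3.24%) or 3' UTR (1.42%), or outside protein-coding genes in a gene of another biotype (6.38%). The class was taken at the summit base alone, and several peak intervals at fmi-1 also covered exon sequence. All 11 intergenic summits were upstream of a cadherin gene. Of the 21 intronic ones, 20 lay more than 2000 bp inside the gene, the cdh-9 summit being the exception. The loci were defined by gene bodies, so this share is not independent of how the summits were chosen.

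Internal starts were then compared with the intronic summits. A transcript start at least 500 bp inside the gene from the outermost start was counted as alternative, and hmr-1, fmi-1 and cdh-8 have such starts. Within 1000 bp of an alternative start lay 3 of the 21 intronic cadherin summits (14.3%), against 26.1% of the 1348 intronic summits of the whole set. All 3 were at fmi-1. The summit at 13022499 lay 414 bp upstream of the start of fmi-1b (13022913), a form with 2237 codons against 2596 for fmi-1a. The summit at 13023567 lay 654 bp downstream of that start, and the summit at 13026837 lay 644 bp downstream of the start of fmi-1c (13026193), a form with 1582 codons. Within 2000 bp the number was 8, which added the hmr-1 summits upstream of the hmr-1a and hmr-1e starts and, at fmi-1, the close pair 1436 and 1231 bp upstream of the fmi-1c start and the summit 1443 bp downstream of it. Within 500 bp it was 1. The share over all intronic summits was taken at 1000 bp only, so the counts at 2000 and 500 bp have no background beside them. Many worm transcripts are trans-spliced, so an annotated start need not be where transcription begins.

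Sequence motifs were searched in the 201 bases around each summit, on both strands. The core TAAT was in 27 of 32 windows (84.4%), against 76.0% of all optimal windows. Its palindrome TAATTA was in 8 (25%), against 10.9%. The spaced palindrome, a TAAT and an ATTA with any 3 bases between them, was in 4 (12.5%), against 1.88%. Every TAATTA and spaced palindrome also counts as TAAT, and in 2 of the 4 windows the spaced palindrome overlapped a TAATTA. These 4 windows were the hmr-1 summits at 11126499 and 11139555, the cdh-4 summit at 4515378 and the cdh-8 summit, and the site was centred 31, 21, 6 and 27 bp from the summit, in that order. The same 4 windows held it when 50 or 200 bp to each side were searched.

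The TAATTA sites lay at the hmr-1 summits 11090265, 11104418 and 11139555, at fmi-1 13022499, at cdh-4 4524263, 4515378 and 4519579, and at cdh-9 16593582. At fmi-1 13022499, the summit near the fmi-1b start, the site was centred 4.5 bp from the summit. The GA repeat GAGAGAGA was in 7 of 32 windows (21.9%), against 11.7% of all, and 5 of the 7 were at hmr-1. The hmr-1 summits with it were 11131615, 11134996, 11097429, 11095821 and 11090465. The fmi-1 and cdh-4 windows with it are among those printed. The E-box CANNTG was in 19 windows (59.4%), against 55.4%, but within 50 bp of the summit it was in 25% of cadherin windows, against 34.8% of all. The GATA factor site TGATAA was in 4 (12.5%), against 7.72%. A match is a description of the sequence, and binding at the site was not tested. Median GC content was 40.8% in the cadherin windows and 41.8% in all optimal windows.

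**Figure D4:**
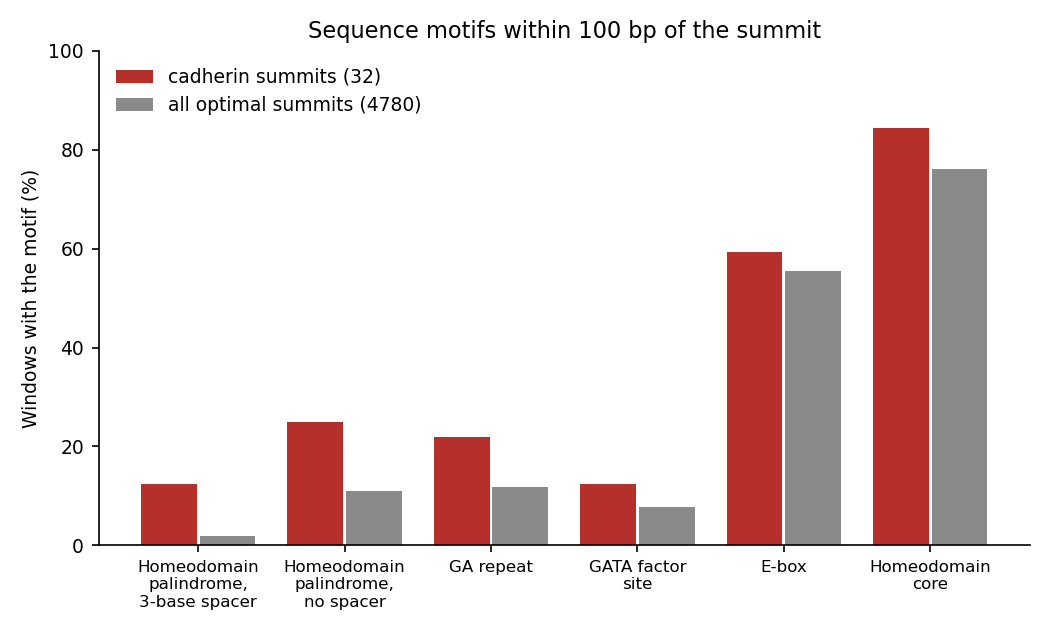
Share of 201-base windows around the summit that hold each motif (y axis, percent) for the 32 cadherin summits (red) and all 4780 optimal summits (grey). The spaced homeodomain palindrome was in 12.5% of cadherin windows and 1.88% of all, and the GA repeat in 21.9% and 11.7%. The 32 include summits that lay nearer to the start of another gene than to a cadherin start.

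The strongest summits of hmr-1, fmi-1 and cdh-1 each had a weaker companion, 200, 205 and 203 bp away, in an overlapping peak interval. Of the 32 cadherin summits 6 (18.8%) were in such a pair within 250 bp, against 11.9% of all optimal summits. Over the whole set there were 285 neighbouring pairs within 250 bp, and 273 of them (95.8%) were 190 to 220 bp apart. Whether a companion is a site of its own was not tested.

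Partners of the cadherins, and the other cadherin-domain genes casy-1 and cdh-12, were examined as a list of 11 genes. Of these, 8 held at least 1 optimal summit, against 27.8% of all loci and 53.1% of those of at least 12000 bp. The median was 1 summit, as over these long loci. The hmp-1, hmp-2 and vang-1 loci, which each held a summit, were shorter than that, at 11.3, 8.8 and 9.8 kb. For them the long loci are not a background of like length. Counted only for the gene with the nearest outermost start, 6 of the 11 held a summit, against 15% of all loci by the same rule. The share of the long loci was not taken by that rule. Among the catenins, hmp-1, the alpha-catenin gene, held 3 summits, the strongest 951 bp upstream with a signal of 293 (rank 509). The beta-catenin gene hmp-2 held 1, with a signal of 394 (rank 232), 1414 bp upstream and 234 bp from the start of its neighbour K05C4.7. The p120 catenin gene jac-1 held none. Among the junction partners, zoo-1, which encodes a zonula occludens family protein, held 2 summits, the stronger with a signal of 1404 (rank 1), and the scaffold gene magi-1 held 3 summits, the strongest intronic with 528 (rank 94). The afadin gene afd-1 and the GTPase-activating protein gene srgp-1 held 1 each, at ranks 1178 and 4648, and that of srgp-1 was 207 bp from the start of sec-24.1. The calsyntenin gene casy-1, which also encodes cadherin repeats, held 6, the strongest intronic with a signal of 299 (rank 488), and cdh-12 held none. Of the planar polarity genes, vang-1 held 1 summit 322 bp upstream (rank 4058) and prkl-1 none.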

How the data were processed

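Peak lists in narrowPeak format were deposited for 2 biological replicates of 1 group, and the ce11 lists were used. Per the deposited text files, the replicate and pooled lists are relaxed input for IDR, derived from alignments and 1 further file, and the optimal set passed the IDR threshold. Which peak caller and aligner were used is not given in the sources used here. The deposited signal of each peak is the authors' peak caller's score, used only to rank peaks within a list. Summits are the deposited start plus the deposited offset, another deposited value in bases, and are given 1-based.

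Loci were taken from Ensembl release 115 of WBcel235, the assembly of ce11, and sequences from RefSeq of the same assembly. Summits within 100 bp were matched between lists. Counts were set beside those of all protein-coding loci or all optimal summits, with no test, since there was 1 group. The 10 members, the partner list and the motifs were chosen with earlier results of these data known. The rule for named genes took all members, partners with a summit, and genes whose start was nearest to a member's summit. W07G4.10, K05C4.7, sec-24.1 and the partners without a summit (jac-1, cdh-12, prkl-1) fall outside it and were named after their values were seen. Counting was tested on simulated data (Python 3.11.15, pandas 2.3.3, numpy 2.4.6). The ce10 lists were not used. The alternatives were other upstream reaches, windows, match distances and limits, the 2390 strongest of the set, each replicate by itself, peak midpoints, and nearest starts, outermost or of any transcript.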

Additional observations from a re-analysis of the deposited data

How the results depend on the processing

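The count of cadherin loci with a summit stayed between 5 and 6 under every alternative run, and cdh-3, cdh-5, cdh-7 and cdh-10 held 0 in each, though most alternatives can only remove summits. The 32 summits became 21 in gene bodies alone, 20 in the 2390 strongest of the optimal set and 18 when a summit counted only for the gene with the nearest outermost start. With the starts of all annotated transcripts, an alternative chosen after seeing the data, they numbered 27. Their density was then 0.81 per 10 kb among the 2390 strongest and 0.729 with nearest outermost starts. Both rules also remove summits from other loci, and no density over other loci was taken under them. The share of all loci with a summit was 19.6% with 2000 bp upstream, 5.44% in gene bodies and 16.2% among the 2390 strongest. It was 15% with nearest outermost starts and 15.1% with all starts. No share over the long loci was taken for these alternatives. The cadherin counts thus have no background of like length there, and the partner counts have none over long loci. Partner loci with a summit numbered 4 in gene bodies. Intronic summits near an alternative start numbered 1 within 500 bp and 8 within 2000 bp, with no share over all intronic summits taken at these distances. Within 50 bp of the summit, the GA repeat was in 4 cadherin windows (12.5%, against 6.44% of all), the E-box in 8 (25%, against 34.8%) and TGATAA in 1 (3.12%, against 3.01%). Within 200 bp TGATAA was in 8 (25%, against 20%). Motif shares were not taken with summits assigned by nearest start. With a single replicate, the loci with a summit numbered 6, the summits 31, the density 1.26 per 10 kb, the share of all loci 27.2 to 27.5%, the partner loci 7 to 8, the summits near alternative starts 2 to 3 and the median rank 6.65 to 7.65% of the list, against 7.03% in the pooled list. Merging summits within 250 bp, also chosen after seeing the data, left 29 summits, with 12 at hmr-1, 7 at fmi-1 and 3 at cdh-1. Of the values for the 6 genes with a summit, 10 moved by more than 1.5 times and 44 did not. No paired analysis was possible because there was 1 group. Depth is unknown and limits what a missing summit shows.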
